A study of Mus musculus with 9 samples.

Results

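The enzymes that make and break down eicosanoids, and the receptors that read them, were taken as 37 genes listed by symbol for their role, with earlier results of these data known. Of these, 32 were analysed out of the 16755 genes of the RNA-seq table. Ptger3, Ptgfr, Alox15, Ltb4r1 and Cysltr2 were not analysed here. RNA was sequenced from liver of male C57BL/6 mice (C57BL/6J in the study's methods) in 3 groups of 3, and all groups carried Scd2f/f alleles, in which the third exon of the desaturase gene Scd2 is flanked by loxP sites. Scd2f/f mice and Scd2f/f;Col1a1-Cre (Scd2f/f;CC) mice had received the carcinogen diethyl nitrosamine (DEN, 10 mg/kg) when 2 weeks old and a Western alcohol diet (WAD) that started at 6 weeks, for 4 months by the sample labels and for longer by the study's methods. The remaining Scd2f/f group was untreated, and no age at sampling is given in the labels. The paper's results describe the tissue of the treated mice as tumor-adjacent liver (TAL), its methods for RNA-seq call it NTL, and the labels name it only as liver. Cre is driven by the Col1a1 promoter, so deletion is limited to cells that express Col1a1, mainly activated hepatic stellate cells (aHSC) and portal fibroblasts, and bulk liver also contains the unrecombined Scd2 of all other cells.

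The values analysed were the authors' means of each group, in read counts per gene normalised to the upper quartile and given with 3 significant digits. They are not stated to be scaled to gene length. The table's means alone were analysed and no value of a single mouse, so no value below has a standard deviation, no test was possible, and the depth of the libraries is unknown. "Higher" and "lower" describe the authors' means alone. A gene was counted as past 2-fold only if its mean over the 3 groups was at least 1, which left 16 of the 32 eicosanoid genes and 11784 genes in all. Scd2, the targeted gene, had authors' means of 2.46, 6.47 and 1.87 in untreated liver, Scd2f/f TAL and Scd2f/f;CC TAL. The level in Scd2f/f;CC TAL was thus 3.46-fold below that of Scd2f/f TAL and close to that of untreated liver. Hepatocyte markers dominated every group, with Alb at 21300, 20900 and 22700 in the same order. The 75th percentile of the means ran from 15.4 to 15.5.

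Eicosanoids are signaling lipids made from arachidonic acid. Phospholipases free the acid from membranes, cyclooxygenases turn it into prostaglandin H2, and terminal synthases convert this into prostaglandins, prostacyclin or thromboxane A2. Lipoxygenases make leukotrienes and hydroxy acids from it, and cytochrome P450 enzymes make epoxides and further hydroxy acids. The products act on G protein-coupled receptors and are short-lived. In liver, macrophages are a well known source of prostanoids. Thromboxane synthase releases 12-hydroxyheptadecatrienoic acid (12-HHTrE) together with thromboxane A2. 12-HHTrE is a ligand of LTB4R2, which is also a low-affinity receptor of leukotriene B4.

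DEN + WAD livers of Scd2f/f mice had higher means than untreated livers for 22 of the 32 eicosanoid genes and lower means for 10, where 53.7% of all 16755 genes were higher and 45.8% lower. Those past 2-fold were 5 of 16, all higher: Pla2g7, Pla2g4a, Tbxas1, Hpgds and Ptger4. Across all genes 6.40% were past 2-fold higher and 2.89% past 2-fold lower in this comparison. Between the genotypes after DEN + WAD, 21 of the 32 eicosanoid genes had a lower mean and 11 a higher one in Scd2f/f;CC TAL, where 49.6% of all genes were lower and 49.5% higher. These counts include the genes under the minimum. Over the 16 at or above it, the median log2 ratio between genotypes was -0.008, beside 0.0059 over all such genes. The 1 member past 2-fold was Pla2g7, which was lower, against 1.54% of all genes past 2-fold lower and 0.645% past 2-fold higher. Cyp1b1 and Ptgs2 had larger differences, but their means over the groups, 0.853 and 0.232, were under the minimum. Both comparisons use the Scd2f/f TAL group, so a high or low mean in that group moves a gene in opposite directions in the pair, and the comparisons are given side by side without a measure of likeness. All 7 macrophage markers were also past 2-fold higher with DEN + WAD. All 9 markers of stellate cells and portal fibroblasts were higher with DEN + WAD and lower in Scd2f/f;CC TAL than in Scd2f/f TAL. In bulk liver fewer cells of a type and less RNA per cell cannot be told apart.

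**Figure D1:**
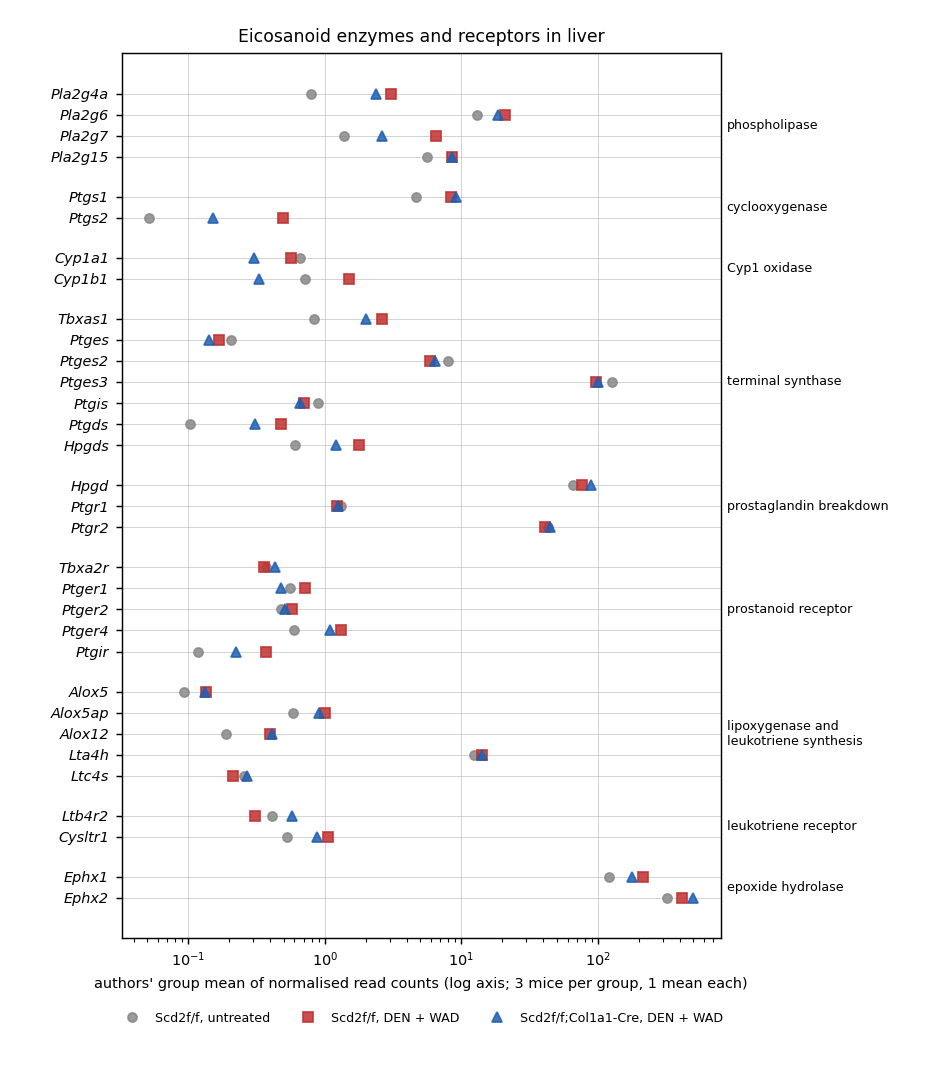
Authors' group means of normalised read counts (x axis, log scale) for the 32 eicosanoid genes, ordered by role. Each symbol is 1 mean of 3 mice: grey circles for untreated Scd2f/f, red squares for Scd2f/f after DEN + WAD and blue triangles for Scd2f/f;Col1a1-Cre after DEN + WAD; Cyp1b1 lies at 0.717, 1.51 and 0.331 and Ltb4r2 at 0.412, 0.308 and 0.580.

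Promoter windows are shown for 6 genes, chosen after their values were seen, because genes among them differed in the same direction in the same comparison, Cyp1b1, Pla2g7 and Ptgs2 lower in Scd2f/f;CC TAL, and Pla2g4a, Tbxas1, Pla2g7 and Ptgs2 higher with DEN + WAD. Cyp1a1 is added as the relative of Cyp1b1. Ptgds and Ptgir, which differed more with DEN + WAD than Tbxas1 did, are not printed. Each is a RefSeq promoter window of GRCm38.p6 with 250 bases before and 50 bases after an annotated start, read 5′ to 3′ along the gene. The windows lie at chr17:79715012-79715311 (minus strand) for Cyp1b1, chr9:57697363-57697662 (plus) for Cyp1a1, chr17:43568201-43568500 (plus) for Pla2g7, chr1:150099781-150100080 (plus) for Ptgs2, chr1:149961241-149961540 (minus) for Pla2g4a and chr6:38918736-38919035 (plus) for Tbxas1. Capitals mark matches, on either strand, to the core of the aryl hydrocarbon receptor element (GCGTG), the TATA box (TATAAA) and the core of the TCF/LEF element (CTTTGA).
Cyp1b1: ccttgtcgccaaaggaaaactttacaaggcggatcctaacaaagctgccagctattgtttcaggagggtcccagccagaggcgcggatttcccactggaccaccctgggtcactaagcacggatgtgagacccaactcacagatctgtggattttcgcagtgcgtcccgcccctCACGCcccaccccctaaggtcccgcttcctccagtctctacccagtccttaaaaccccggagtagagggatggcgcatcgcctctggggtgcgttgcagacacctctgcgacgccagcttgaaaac
Cyp1a1: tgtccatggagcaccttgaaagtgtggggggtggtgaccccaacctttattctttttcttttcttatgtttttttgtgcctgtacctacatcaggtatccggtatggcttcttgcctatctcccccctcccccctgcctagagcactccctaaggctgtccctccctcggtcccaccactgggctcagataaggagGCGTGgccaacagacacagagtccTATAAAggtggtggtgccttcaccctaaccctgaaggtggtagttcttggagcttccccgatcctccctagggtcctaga
Pla2g7: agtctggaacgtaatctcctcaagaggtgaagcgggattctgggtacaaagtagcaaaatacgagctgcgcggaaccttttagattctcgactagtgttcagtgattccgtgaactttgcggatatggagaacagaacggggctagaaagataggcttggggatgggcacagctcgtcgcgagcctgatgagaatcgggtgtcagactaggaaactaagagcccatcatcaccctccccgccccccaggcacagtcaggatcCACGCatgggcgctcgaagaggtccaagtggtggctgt
Ptgs2: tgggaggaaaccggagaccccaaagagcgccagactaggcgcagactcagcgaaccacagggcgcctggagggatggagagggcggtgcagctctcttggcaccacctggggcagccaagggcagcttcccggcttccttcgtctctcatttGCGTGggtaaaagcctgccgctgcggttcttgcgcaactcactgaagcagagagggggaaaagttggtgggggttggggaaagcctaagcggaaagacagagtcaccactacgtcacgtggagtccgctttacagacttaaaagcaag
Pla2g4a: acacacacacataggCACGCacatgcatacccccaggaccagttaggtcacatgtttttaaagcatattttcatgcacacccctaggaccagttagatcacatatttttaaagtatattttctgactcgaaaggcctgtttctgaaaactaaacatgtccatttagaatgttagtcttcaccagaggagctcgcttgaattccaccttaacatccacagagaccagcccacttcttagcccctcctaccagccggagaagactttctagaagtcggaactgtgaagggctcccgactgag
Tbxas1: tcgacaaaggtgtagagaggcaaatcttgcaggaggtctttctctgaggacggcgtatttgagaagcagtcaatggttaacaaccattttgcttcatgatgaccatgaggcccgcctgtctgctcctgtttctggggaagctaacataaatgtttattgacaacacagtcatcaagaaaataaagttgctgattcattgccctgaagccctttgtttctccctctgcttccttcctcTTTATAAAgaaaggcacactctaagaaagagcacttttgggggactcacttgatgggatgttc
GCGTG occurred once in each of these windows except that of Tbxas1, which held none. Of the 32 eicosanoid genes, 26 had a promoter entry, with 28 windows among them, and 12 of the 28 windows held GCGTG, against 32.4% of 32851 mouse promoter windows. TATAAA was found in 5 member windows, those of Cyp1a1, Ephx1, Hpgd, Tbxas1 and a downstream start of Pla2g4a that is not printed, against 13.6% of all windows. In the Tbxas1 window a pair of TATAAA matches on opposite strands overlapped. CTTTGA occurred in the Pla2g15 window only, against 16.0% of all windows. A promoter for Ltb4r2 was not analysed. The windows of Cyp1b1, Pla2g7 and Ptgs2 held 16, 17 and 16 CpG, those of Pla2g4a, Cyp1a1 and Tbxas1 held 6, 4 and 4, and the median over all windows was 7. A match describes letters and not a bound site.

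Among the phospholipases, all 4 members analysed were higher in Scd2f/f TAL than in untreated liver and lower in Scd2f/f;CC TAL than in Scd2f/f TAL. Across all genes 53.7% were higher with DEN + WAD and 49.6% lower between genotypes. Another 4 phospholipases were analysed among the further pathway genes. Of those, 3 were lower and 1 higher with DEN + WAD, and 2 were lower and 2 higher between genotypes. Only Pla2g12a among them shared both directions, with means of 5.89, 9.26 and 8.23 in untreated liver, Scd2f/f TAL and Scd2f/f;CC TAL. Pla2g7, the secreted enzyme that inactivates platelet-activating factor and oxidised phospholipids, lies at chr17:43568098-43612201. Its authors' means were 1.39, 6.50 and 2.63 in untreated liver, Scd2f/f TAL and Scd2f/f;CC TAL. It was thus 4.68-fold higher with DEN + WAD and 2.47-fold lower in Scd2f/f;CC TAL, which lay between the other groups. Of the 3803 genes with a mean within 2-fold of its own, 0.920% had a ratio as low in the comparison of genotypes. An antisense transcript, 1700071M16Rik, shares 10.98% of the exon bases of Pla2g7. The study's methods do not state whether the libraries keep the strand, so reads from both may be mixed there. Of the 32 eicosanoid genes, 11 share exon bases with another gene, Ptger1 among them, and their values are uncertain to that extent.

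Pla2g4a, the cytosolic phospholipase that is selective for arachidonic acid, had means of 0.793, 3.06 and 2.37 in untreated liver, Scd2f/f TAL and Scd2f/f;CC TAL. It was 3.86-fold higher with DEN + WAD, and its log2 ratio between genotypes was -0.37. Both treated groups were well above untreated liver. Pla2g6, a calcium-independent phospholipase, had means of 13, 21 and 18.5, and Pla2g15, the lysosomal phospholipase, means of 5.65, 8.60 and 8.57. Neither reached 2-fold in any comparison, and the Pla2g15 means of the treated groups were nearly the same.

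The cyclooxygenases differed in level. Ptgs1, the constitutive form, had means of 4.68, 8.38 and 9.16, with log2 ratios of 0.84 with DEN + WAD and 0.13 between genotypes. Ptgs2, the inducible form, was listed at 0.0515, 0.492 and 0.151. Its value in untreated liver is near 0.04, the lowest mean of that group, at which 118 genes are listed, so the 9.55-fold difference with DEN + WAD is taken against a value near the bottom of the table. Between genotypes Ptgs2 was 3.26-fold lower in Scd2f/f;CC TAL, and 3.23% of the 2816 genes of similar level had a ratio as low. Adding a pseudocount of 1 to each mean left log2 ratios of 0.50 with DEN + WAD and -0.37 between genotypes. Per kilobase of exon, Ptgs1 was at 2.16 and Ptgs2 at 0.107 in Scd2f/f TAL. Ptgs2 (chr1:150100031-150108227) and Pla2g4a (chr1:149829618-149961290) lie 138740 bases apart, the only pair within 1 Mb among the 32 genes analysed.

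The 2 Cyp1 oxidases, which hydroxylate and epoxidise arachidonic acid besides aromatic hydrocarbons and steroids, were both lower in Scd2f/f;CC TAL. Cyp1b1 (chr17:79706953-79715041, minus strand), the form found mainly outside hepatocytes, had means of 0.717, 1.51 and 0.331 in untreated liver, Scd2f/f TAL and Scd2f/f;CC TAL. It was 2.11-fold higher with DEN + WAD and 4.56-fold lower in Scd2f/f;CC TAL, the largest difference between genotypes among the 32 genes. Its mean over the groups, 0.853, was under the minimum of 1. Adding a pseudocount of 1 to each mean brought both differences under 2-fold. The level in Scd2f/f;CC TAL was also 2.17-fold below untreated liver. Of 3093 genes of similar level, 0.420% had a ratio between genotypes as low. Cyp1a1 had means of 0.659, 0.570 and 0.303, a log2 ratio of -0.91 between genotypes and -0.21 with DEN + WAD, and it too was 2.17-fold below untreated liver in Scd2f/f;CC TAL. In both genes Scd2f/f;CC TAL had the lowest mean of the 3 groups.

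Cyp1 genes are classical targets of the aryl hydrocarbon receptor, whose element core appears in both printed windows. Of the 5 other genes listed for that receptor 4 were analysed, and Ahrr was not analysed here. Ahr itself had means of 32.2, 27.0 and 27.5, Cyp1a2, the hepatocyte form, 335, 225 and 302, and Tiparp 5.39, 5.83 and 5.63. Nqo1, a quinone reductase, had means of 2.48, 3.64 and 3.01, and none of these 4 genes was past 2-fold in any comparison. The part of the receptor in the means of Cyp1b1 and Cyp1a1 was not tested.

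The pattern of Cyp1b1 over the 3 groups was compared with that of 884 genes that had a mean within 2-fold of its own and a spread of at least 1 on the log2 scale. The closest were Tspan8, Plat, Emp1, Loxl1 and Ddr1, at distances from 0.067 to 0.26 between centred log2 means over the 3 groups. Tspan8, a tetraspanin, had means of 0.679, 1.49 and 0.306, and Plat, tissue plasminogen activator, 0.609, 1.20 and 0.277. With only 3 points a pattern is easily matched, and likeness here is a description.

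Terminal synthases were mixed. Tbxas1, thromboxane synthase, had means of 0.833, 2.61 and 1.99 in untreated liver, Scd2f/f TAL and Scd2f/f;CC TAL. It was 3.13-fold higher with DEN + WAD and still 2.39-fold above untreated liver in Scd2f/f;CC TAL, while the ratio between genotypes was 0.762. Both treated groups were above the untreated one. Hpgds, the hematopoietic prostaglandin D synthase, had means of 0.603, 1.78 and 1.20, and Ptgds, the lipocalin-type synthase of the same product, 0.103, 0.474 and 0.306. They were 2.95-fold and 4.60-fold higher with DEN + WAD, and their log2 ratios between genotypes were -0.57 and -0.63. In both genes Scd2f/f;CC TAL lay between untreated liver and Scd2f/f TAL.

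The prostaglandin E synthases and prostacyclin synthase did not share this. Ptges, the inducible microsomal prostaglandin E synthase, was listed at 0.207, 0.167 and 0.142, and Ptgis, prostacyclin synthase, at 0.888, 0.705 and 0.661. Ptges2 had means of 7.99, 5.87 and 6.41, and Ptges3, which is also the HSP90 co-chaperone p23, 127, 97.2 and 101. All 4 were lower with DEN + WAD, with log2 ratios from -0.44 for Ptges2 to -0.31 for Ptges, and none reached 2-fold.

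Enzymes that inactivate prostaglandins had the narrowest range of ratios of the roles described here in these 2 comparisons. Hpgd, 15-hydroxyprostaglandin dehydrogenase, had means of 66.3, 76.4 and 88.5. Ptgr1 had means of 1.32, 1.22 and 1.24, and Ptgr2 43.2, 41.1 and 44.4. Their ratios lay between 1.02 and 1.16 between genotypes and between 0.924 and 1.15 with DEN + WAD. Of the exon bases of Ptgr2, 32.0% are shared with Gm47484 on the opposite strand.

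**Figure D2:**
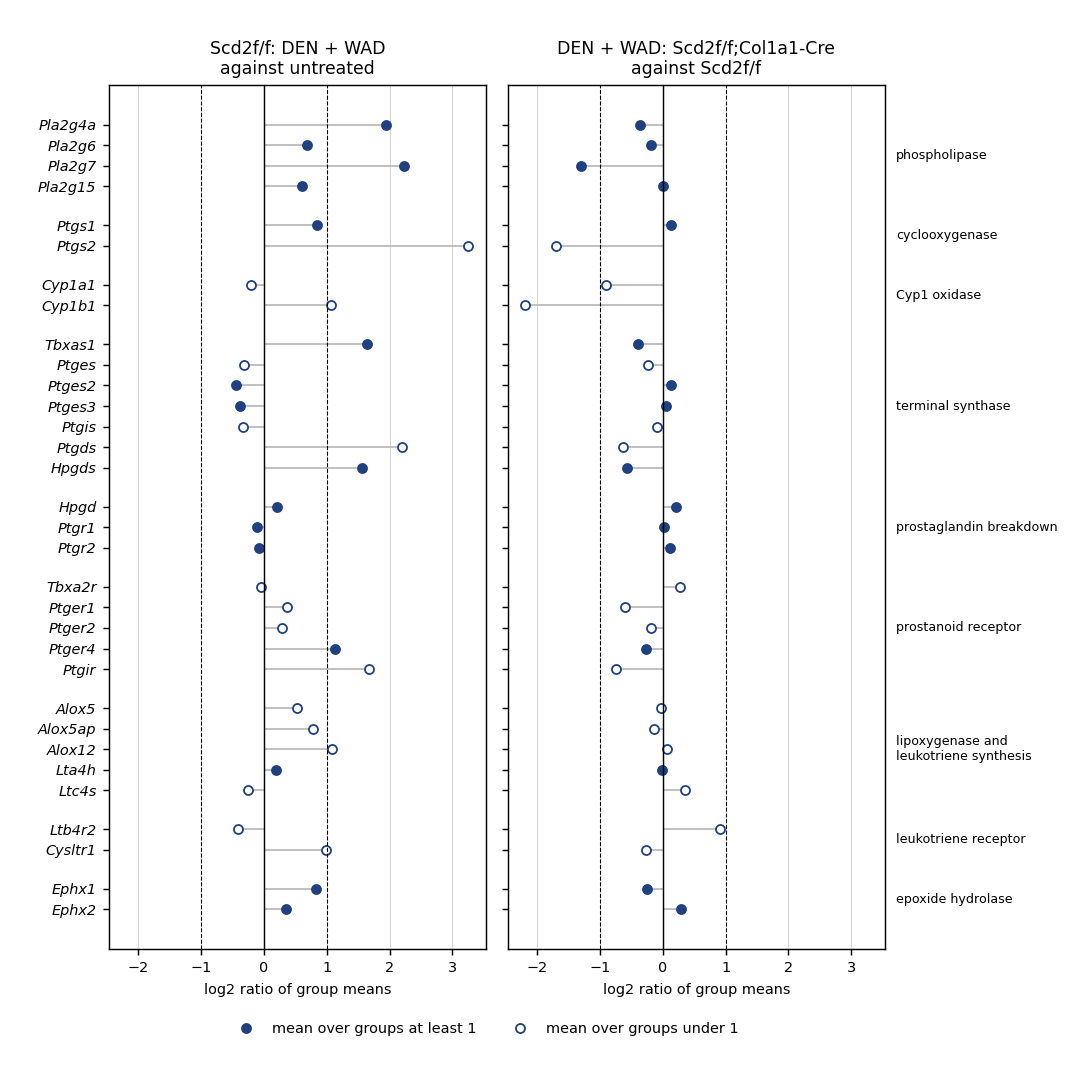
Log2 ratio of group means (x axes) for each of the 32 eicosanoid genes, Scd2f/f DEN + WAD against untreated on the left and Scd2f/f;Col1a1-Cre against Scd2f/f after DEN + WAD on the right. Filled points have a mean over the groups of at least 1, open points a lower one, and dashed lines mark 2-fold; among the filled points Pla2g7, Pla2g4a, Tbxas1, Hpgds and Ptger4 lie beyond the line on the left and Pla2g7 on the right.

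The prostanoid receptors were scarce. Their 5 means added up to 2.12, 3.34 and 2.73 in untreated liver, Scd2f/f TAL and Scd2f/f;CC TAL. Ptger4, a prostaglandin E2 receptor that raises cyclic AMP, had means of 0.600, 1.31 and 1.09 and was 2.18-fold higher with DEN + WAD, with a mean over the groups that just met the minimum of 1. Ptgir, the prostacyclin receptor, was listed at 0.117, 0.372 and 0.223, with log2 ratios of 1.67 with DEN + WAD and -0.74 between genotypes. In both receptors Scd2f/f;CC TAL lay between the other groups.

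Tbxa2r, the thromboxane receptor, was listed at 0.368, 0.358 and 0.434, a ratio of 0.973 with DEN + WAD. Ptger2 was listed at 0.474, 0.577 and 0.507, and Ptger1 at 0.559, 0.722 and 0.474. None of these 3 receptors was past 2-fold in any comparison.

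Of the leukotriene receptors, Ltb4r2 (chr14:55761428-55763229), the receptor of 12-HHTrE, was listed at 0.412, 0.308 and 0.580 in untreated liver, Scd2f/f TAL and Scd2f/f;CC TAL. Scd2f/f TAL had the lowest mean and Scd2f/f;CC TAL the highest. The log2 ratio was -0.42 with DEN + WAD and 0.91 between genotypes, the highest between genotypes among the 32 genes, and 5.21% of 3360 genes of similar level had a ratio as high. With a pseudocount of 1 the latter was 0.27. By other measures the paper reports lower levels in Scd2f/f;CC mice, for the protein in TAL by immunoblot and for the mRNA in tumors by qPCR. Its discussion states that RNA-seq did not detect this reduction. Cysltr1, a receptor of cysteinyl leukotrienes, was listed at 0.532, 1.06 and 0.883, with a log2 ratio of 0.99 with DEN + WAD and -0.26 between genotypes. The pattern of Ltb4r2 was compared with that of 1115 genes that had a mean within 2-fold of its own and a log2 spread of at least 1. Of these, Gm7008, Smim6, AC140299.2, 5730405O15Rik and Tulp2 were closest to Ltb4r2. Ltb4r2 itself had a spread of 0.91, so genes with a spread as small as its own were not compared. The genes named had means under 1 in every group, and the comparison was limited to genes of similar level.

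The 5 members listed as lipoxygenases or for leukotriene synthesis had ratios from 0.907 to 1.27 between genotypes, none past 2-fold. All 4 leukotriene C4 pathway genes analysed, of 7 listed among the further pathway genes, were lower, with a median log2 ratio of -0.50. Of all genes 49.6% were lower. The only one of the 4 past 2-fold was Dpep1, at -1.32, and its mean over the groups, 0.478, was under the minimum. Alox12, the 12-lipoxygenase that makes 12-HETE, was listed at 0.188, 0.397 and 0.414, that is, 2.11-fold higher with DEN + WAD and with a log2 ratio of 0.06 between genotypes. Alox5, the 5-lipoxygenase, was listed at 0.0937, 0.135 and 0.132, and its partner Alox5ap at 0.581, 1.0 and 0.907. The ratios between genotypes of these 3 genes lay from 0.907 to 1.04. Lta4h, which makes leukotriene B4, had means of 12.4, 14.2 and 14.1. Ltc4s, leukotriene C4 synthase, was listed at 0.255, 0.213 and 0.271, and its ratio between genotypes was 1.27.

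The epoxide hydrolases had the highest levels per length of the set. Ephx2, the soluble form that hydrolyses fatty acid epoxides, had means of 321, 411 and 502, or 129, 165 and 202 per kilobase of exon. Ephx1, the microsomal form, had means of 121, 214 and 179, or 62.1, 110 and 91.8 per kilobase. Ephx2 was highest in Scd2f/f;CC TAL and Ephx1 in Scd2f/f TAL, and neither reached 2-fold. Per kilobase of exon the next were Hpgd, at 45.4, and Ptges3, at 43.8, in Scd2f/f TAL, while Alox5 was the lowest of the 32 in that group at 0.0329.

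Over the 16 eicosanoid genes at or above the minimum, the median log2 ratio was 0.65 with DEN + WAD in Scd2f/f mice, beside 0.03 over all genes at or above it. Between genotypes it was -0.008, beside 0.0059 over all genes. Scd2f/f;CC TAL against untreated liver gave a median of 0.58, beside 0.04 over all genes, with Pla2g4a and Tbxas1 past 2-fold higher, where 4.51% of all genes were, and no member past 2-fold lower, where 2.55% were. With no minimum, the count of members past 2-fold came to 10 of 32 higher with DEN + WAD, by the addition of Ptgs2, Ptgds, Ptgir, Alox12 and Cyp1b1, against 9.37% of all 16755 genes, and to 0 lower, against 4.69%. Between genotypes it came to 3 of 32 lower, by the addition of Cyp1b1 and Ptgs2, against 4.07% of all genes, and to 0 higher, against 1.82%. For Scd2f/f;CC TAL against untreated liver it came to 5 higher, with Ptgs2, Ptgds and Alox12 added, against 6.41% of all genes, and to 2 lower, Cyp1b1 and Cyp1a1, against 4.64%. Genes of low mean are past 2-fold more often. Among the 4971 genes with a mean under 1, 16.4% were past 2-fold higher and 8.93% lower with DEN + WAD. Between genotypes 10.1% were lower and 4.61% higher, and in Scd2f/f;CC TAL against untreated liver 10.9% were higher and 9.58% lower.

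**Figure D3:**
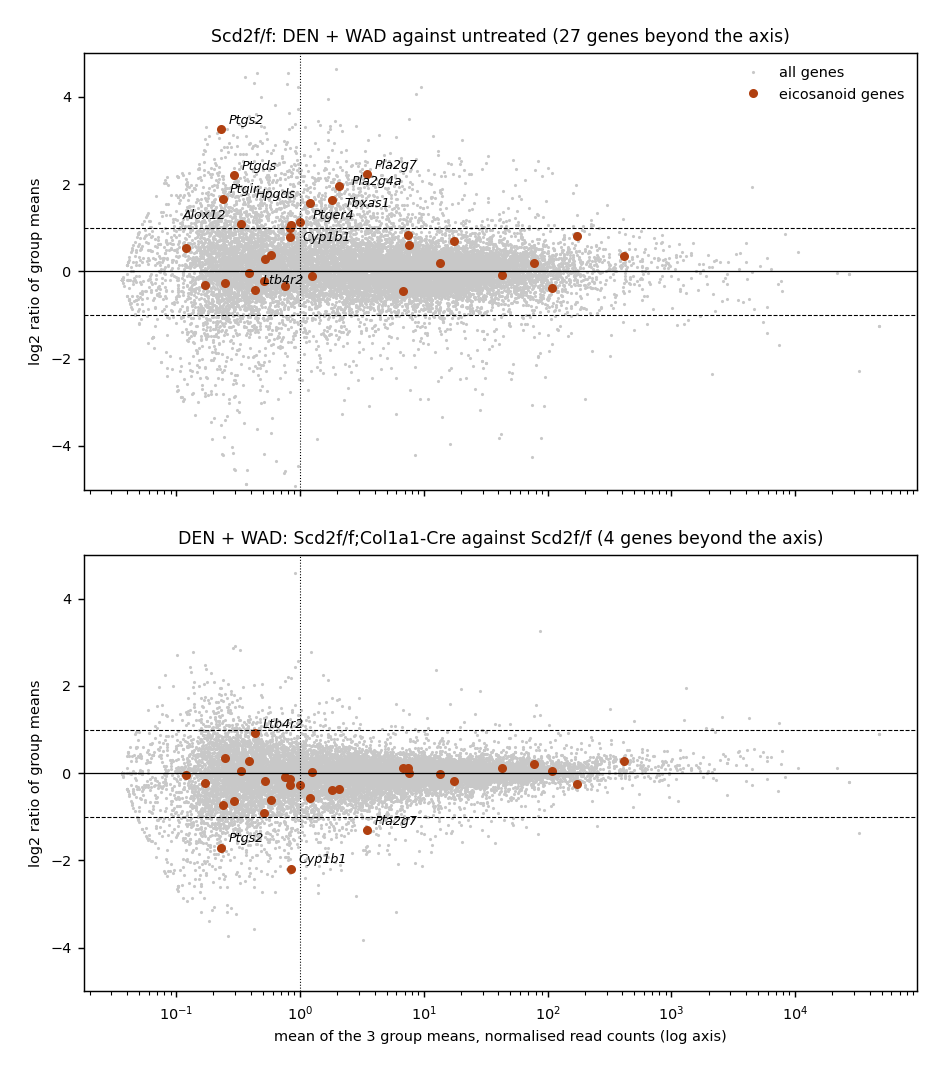
Log2 ratio of group means (y axes) against the mean of the 3 group means (x axis, log scale) for all 16755 genes (grey) and the 32 eicosanoid genes (red), with DEN + WAD against untreated in Scd2f/f mice above and Scd2f/f;Col1a1-Cre against Scd2f/f after DEN + WAD below. Dashed lines mark 2-fold and the dotted line a mean of 1; the grey cloud widens to the left, where Ptgs2, Ltb4r2 and Cyp1b1 lie, while Pla2g7 lies to the right of the dotted line in both panels.

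Of 59 further genes listed for arachidonate supply, P450 oxidation, transport and oxylipin receptors, 40 were analysed and 34 had a mean of at least 1. With DEN + WAD 6 of the 34 were past 2-fold higher, against 6.40% of all genes, and 2 lower, against 2.89%. The higher ones included the omega-hydroxylases Cyp4a10 (means of 54.8, 217 and 236) and Cyp4a14 (32.9, 158 and 137), which are paralogs. Elovl5, an elongase of polyunsaturated fatty acids, had means of 119, 244 and 212, and Cmklr1, the chemerin receptor that also binds resolvin E1, 1.19, 3.95 and 2.58. The transporters Abcc4, an exporter of prostaglandins, and Abcc1, an exporter of leukotriene C4, had means of 1.72, 3.92 and 2.73, and of 0.988, 2.35 and 2.11. In all 6 genes both treated groups were above the untreated group.

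The lower ones were Acsl4 and Cyp2c29. Acsl4, the ligase that prefers arachidonic acid, had means of 198, 62.2 and 64.5 and stayed 3.07-fold below untreated liver in Scd2f/f;CC TAL. Cyp2c29, an arachidonate epoxygenase from a family of close paralogs, had means of 648, 255 and 581. It was 2.28-fold higher in Scd2f/f;CC TAL than in Scd2f/f TAL and the only one of the 34 past 2-fold between genotypes, where 0.645% of all genes were higher and 1.54% lower. Against untreated liver, Scd2f/f;CC TAL had 4 of the 34 past 2-fold higher, Abcc1, Cmklr1, Cyp4a10 and Cyp4a14, against 4.51% of all genes, and Acsl4 lower, against 2.55%.

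Markers of cell types differed between the groups beside these genes. With DEN + WAD all 7 macrophage markers were past 2-fold higher, their means adding up to 82.1, 286 and 228 in untreated liver, Scd2f/f TAL and Scd2f/f;CC TAL. All 3 neutrophil markers analysed, of 5 listed, were higher too, with sums of 1.04, 4.27 and 3.46, and all 5 T and B cell markers, with sums of 0.941, 2.74 and 1.99. All 9 markers of stellate cells and portal fibroblasts and all 5 endothelial markers were higher as well, with 3 and 2 past 2-fold. Hepatocyte markers were lower for 4 of 5, and cholangiocyte markers for 2 of 4. The part of any of these cell types in the higher means of eicosanoid genes was not tested.

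Between genotypes all 9 markers of stellate cells and portal fibroblasts were lower in Scd2f/f;CC TAL, with a median log2 ratio of -1.06 and sums of 197, 339 and 194 in untreated liver, Scd2f/f TAL and Scd2f/f;CC TAL. Col1a1, whose promoter drives Cre, had means of 4.69, 19.6 and 4.51. The 4 cholangiocyte markers were lower as well, with a median of -1.87 and sums of 6.37, 8.04 and 4.31. Of these, Krt7 and Krt19 had means over the groups under 1, and the median of the 2 others was -1.19. Macrophage markers had a median of -0.29, with 6 of 7 lower, and the lowest were Lyz2 and Cd68 at -0.75 and -0.65. These differences accompany the low means of Cyp1b1, Pla2g7 and Ptgs2, and their part in them was not tested. Hepatocyte markers had a median of 0.14, with sums of 29701, 26959 and 29893, and endothelial markers one of -0.10, with sums of 91.2, 123 and 125.

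Platelets are the classical site of thromboxane synthesis and of Alox12. The 3 platelet markers analysed, of 5 listed, added up to 1.69, 1.63 and 1.62 and had medians of -0.04 with DEN + WAD and 0.02 between genotypes, with Pf4 at -0.58 and Ppbp at 0.47 in the latter. The part of platelets in the means of Tbxas1 and Alox12 was not tested. Mast cells express Hpgds and Ltc4s, and of their 5 markers only Kit was analysed, at 5.35, 4.89 and 6.28.

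**Figure D4:**
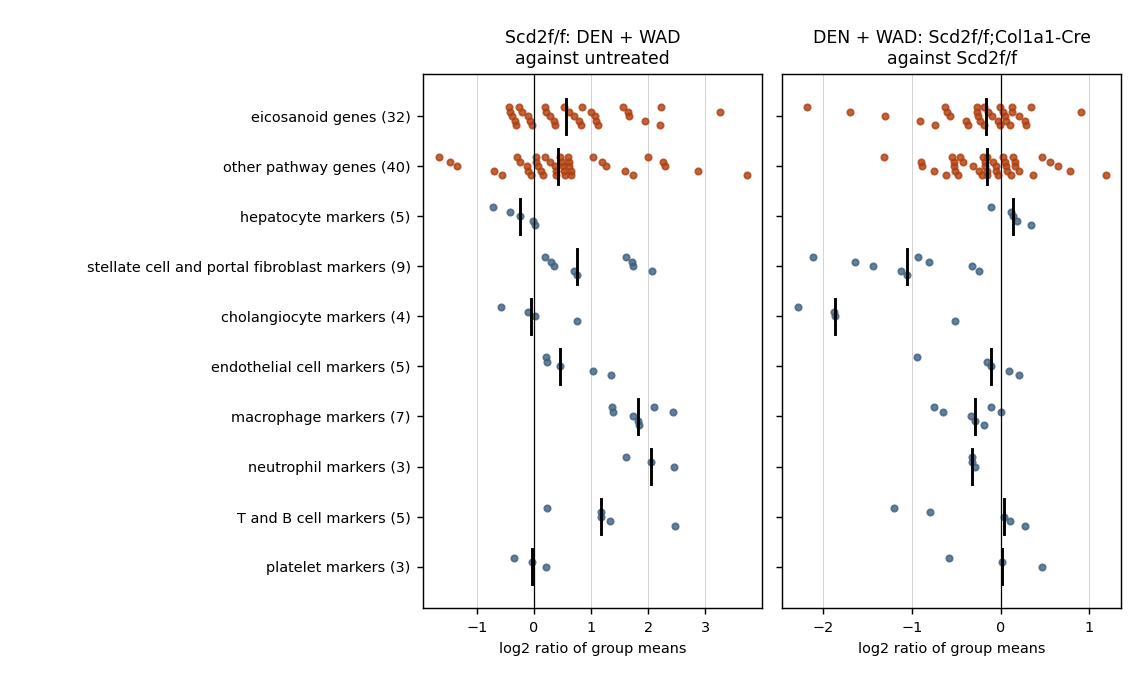
Log2 ratio of group means (x axes) for each gene of the lists named at the left, with the number of genes analysed in brackets, for DEN + WAD against untreated in Scd2f/f mice (left) and Scd2f/f;Col1a1-Cre against Scd2f/f after DEN + WAD (right). Points are genes and black bars medians, with eicosanoid and pathway genes in red and cell type markers in blue; on the left the macrophage markers have a median of 1.81, and on the right the stellate cell and portal fibroblast markers have one of -1.06.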

How the data were processed

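RNA was extracted from liver of 9 mice (3 per group), and polyadenylated RNA was collected with TruSeq v2 beads. The study's methods do not state whether the libraries keep the strand. The submitters' processing notes name STAR 2.6.1, Partek 6 and the build mm10. Per the study's methods, the authors assigned reads to genes with an expectation-maximisation method, normalised counts to the upper quartile and compared groups in Partek. The deposited table of 16755 genes gives the signal of each group as the authors' least-squares mean of normalised counts, in 3 of its 18 columns. Its other measurement columns hold the p-values, false discovery rates, ratios and fold changes of the authors' 2 comparisons and were not used. Planned tests over single samples could not be run on group means.

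Ratios of group means were computed without a pseudocount. A gene was counted as past 2-fold if its mean over the 3 groups was at least 1. Members and lists were chosen with earlier results of these data known. All members analysed, Scd2, the list of the aryl hydrocarbon receptor, pathway genes past 2-fold and, for Cyp1b1 and Ltb4r2, the 5 genes nearest in centred log2 means were named. The nearest genes were sought among those with a mean within 2-fold and a log2 spread of at least 1, a spread that Ltb4r2 itself did not reach. Macrophage, cholangiocyte and other markers were taken as lists. Starts in the table matched exon starts of GENCODE on GRCm38 for 94.4% of 16130 genes matched by name, and its stops lie 1 base past the exon end, so ends are given as the stop less 1. Lengths for levels per kilobase are merged exon bases. Promoter windows are from RefSeq. The code of the fold rule and the centring was checked on simulated means with planted fold changes. These held no noise, so the check does not tell how the rule behaves in these data. Alternatives were other minimums, folds and pseudocounts, and centring on the median gene. Python 3.11.15 was used with NumPy 2.4.6, pandas 2.3.3 and Matplotlib 3.10.9. A result on the exons of 1 member is not reported here.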

Additional observations from a re-analysis of the deposited data

How the results depend on the processing

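No paired analysis was possible because the table holds 1 mean per group and no value of a single mouse, and for the same reason leaving out each replicate and the replicate block were not run. The counts of members past 2-fold depended on the limits. Lower in Scd2f/f;CC TAL than in Scd2f/f TAL were 1 as reported, 3 with no minimum of the mean, 0 with a minimum of 10 and 0 at 3-fold. Higher in Scd2f/f TAL than in untreated liver were 5 as reported, 10 with no minimum, 0 with a minimum of 10 (which leaves 7 members), 9 at 1.5-fold, 3 at 3-fold and 2 with a pseudocount of 1. In Scd2f/f;CC TAL against untreated liver 2 were higher as reported, 5 with no minimum, 0 with a minimum of 10, 8 at 1.5-fold, 0 at 3-fold and 0 with a pseudocount of 1, and 2 were lower with no minimum, Cyp1b1 and Cyp1a1, against 0 as reported. Of the 96 log2 ratios of single members, 3 moved by over 0.58 (1.5-fold) with a pseudocount of 0.1, 19 with one of 1 and 0 under centring on the median gene. The sign turned only for Ptgr2 under centring, from 0.04 to -0.0038 in Scd2f/f;CC TAL against untreated liver. The median between genotypes went from -0.008 to 0.06 with a minimum of 10. The depth is unknown, so no floor could be given for genes with means under 1.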

Other observations

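The values of 5 further genes of the pathway list follow, of which all but Slco2a1 had a mean over the groups under 1. They were chosen after their values were seen and have no test. Akr1c18, a steroid reductase with prostaglandin F synthase activity, was listed at 0.135, 1.78 and 0.964 in untreated liver, Scd2f/f TAL and Scd2f/f;CC TAL. Cyp4f18, which inactivates leukotriene B4 in neutrophils, was listed at 0.103, 0.755 and 0.404, and Fpr2, a receptor of formyl peptides and lipoxin A4, at 0.245, 1.20 and 0.894. In these 3 genes untreated liver was lowest and Scd2f/f TAL highest. Dpep1, which converts leukotriene D4 to leukotriene E4, was listed at 0.625, 0.577 and 0.231, with Scd2f/f;CC TAL lowest. Slco2a1, the prostaglandin uptake transporter, had means of 23.5, 16.0 and 23.6, so that Scd2f/f TAL was lowest and the other groups were nearly equal.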
